A study of Mus musculus with 20 samples.

Results

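Expression of 36 genes that repair the DNA lesions made by platinum drugs was followed across the bladders and metastases of a mouse model of bladder cancer. The genes were chosen by symbol for their roles in nucleotide excision repair, the Fanconi pathway, homologous recombination, mismatch repair and translesion synthesis. An array row was used where the platform annotation gave it exactly 1 gene symbol. Of the 36 genes, 35 were measured, each by 1 row, out of 30141 genes in all. Xrcc2 was not analysed here. The 35 comprised 11 excision repair genes, 12 Fanconi crosslink repair genes, 8 homologous recombination genes and 4 genes of mismatch recognition and translesion synthesis.

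CDDP (cisplatin) binds purine bases and joins neighbouring bases of one strand or bases of opposite strands. Intrastrand links are cut out by nucleotide excision repair, in which Xpc and the Ddb1-Ddb2 complex find distortions, the Ercc2 and Ercc3 helicases of TFIIH open the helix, Xpa checks the lesion, and the nucleases Ercc5 and Ercc1-Ercc4 cut on either side. Interstrand crosslinks are handled during replication by the Fanconi pathway, whose core complex and the Ube2t-Fancl pair attach ubiquitin to Fancd2 and Fanci. Breaks made in that process are mended by homologous recombination through Brca1, Palb2 and Brca2, and gaps opposite lesions are filled by the translesion polymerases.

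All animals were CKO mice on the FVB/N background, with the alleles Rbf/f, Ptenf/f, Tp53f/f and p107-/-: the floxed alleles can be deleted by Cre recombinase, and the normal bladders too came from mice lacking p107. There were 5 arrays of normal bladders (numbered 1, 2, 4, 5 and 6), 7 of tumour bladders, which had received an adenovirus coding for Cre, 3 of treated bladders, 4 of metastases and 1 sample titled as a metastasis under palbociclib (palbo metastasis). Treatment was palbociclib, an inhibitor of Cdk4 and Cdk6, at 150 mg/kg daily for 28 days, with CDDP at 6 mg/kg once a week. There was no arm with CDDP alone, so the effects of both drugs cannot be told apart. The labels give neither the age and sex of the mice nor the organ of a metastasis, and nothing says that the arrays of a group came from separate animals, so p-values measure only the spread between these samples.

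The values are log2 expression levels, and array medians ran from 5.11 to 5.48. On 8 arrays (normal bladders 4, 5 and 6, tumour bladders 3, 4 and 5, metastases 3 and 4) bright rows followed no other array. Rows of mean 7 or more count as bright, and their deviations from the mean over all arrays were compared. Dim rows, of mean 4.5 to 5.0, scattered on these 8 arrays with an SD above 0.30. Their urothelial marker means lay between 6.87 and 7.04 and their smooth muscle marker means between 6.67 and 6.89. These low-contrast arrays include no treated bladder, and results are given with and without them. Urothelial markers (10 genes) averaged 8.22 and 8.59 on normal bladders 1 and 2, 9.92 on tumour bladder 7 and 7.4 to 8.59 on the treated bladders, but 5.44 on tumour bladder 6, 5.41 and 6.43 on metastases 1 and 2 and 4.92 on the palbo metastasis. Smooth muscle markers (8 genes) ranged from 4.92 on the palbo metastasis to 9.82 on tumour bladder 7. Of the 12 arrays that are not low in contrast, normal bladders 1 and 2 had Xist, which silences an X chromosome in females, at 11.74 and 11.71. Their tumour bladders and metastases had it at 5.86 or lower, so that sex and tumour against normal cannot be told apart there. Treated bladders 1, 2 and 3 had it at 7.10, 6.04 and 10.05, so that the treated group is not uniform in this marker either. In bulk tissue, fewer cells of a type and less RNA per cell cannot be told apart either.

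The repair genes varied little. Their median SD over the 20 arrays was 0.181 on the log2 scale, against 0.270 for all genes, and 10 of the 35 spanned 1 log2 unit or more between their lowest and highest array. Ddb1, the adaptor of the ultraviolet damage sensor, had a range of 1.77, from 6.46 on the palbo metastasis to 8.24 on metastasis 2. Brca2, a mediator of homologous recombination, had a range of 1.46, and Xpa one of 1.39. Fancd2 and Fancg had ranges of 0.34 each, at mean levels of 5.23 and 5.57. The median level of the repair genes was 5.48, against 5.4 for all genes, and 13 of the 35 lay below the all-gene median. The lowest means were those of Fancf (4.13), Ube2t (4.7) and Rad51b (4.9). Whether low levels limited the ranges and differences of such genes was not tested, so a small range cannot be read as steady expression. Metastasis 1 had 27 of the 35 genes above their own mean over all arrays, where 38.8% of all genes were above theirs. Tumour bladder 6 and treated bladder 3 each had 24 of 35, with 37.8% and 39.1% of all genes. Normal bladders 1 and 2 had 10 and 8 of 35, with 42.2% and 45% of all genes. Normal bladders 4, 5 and 6 had 13, 15 and 23 of 35, with 42.5%, 49.4% and 56.7%. The groups were thus mixed, and treated bladder 3 stood with the highest arrays. Treated bladders 1 and 2 (10 and 12 of 35, with 45% and 50.7% of all genes) stood near normal bladders 1 and 2.

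**Figure D1:**
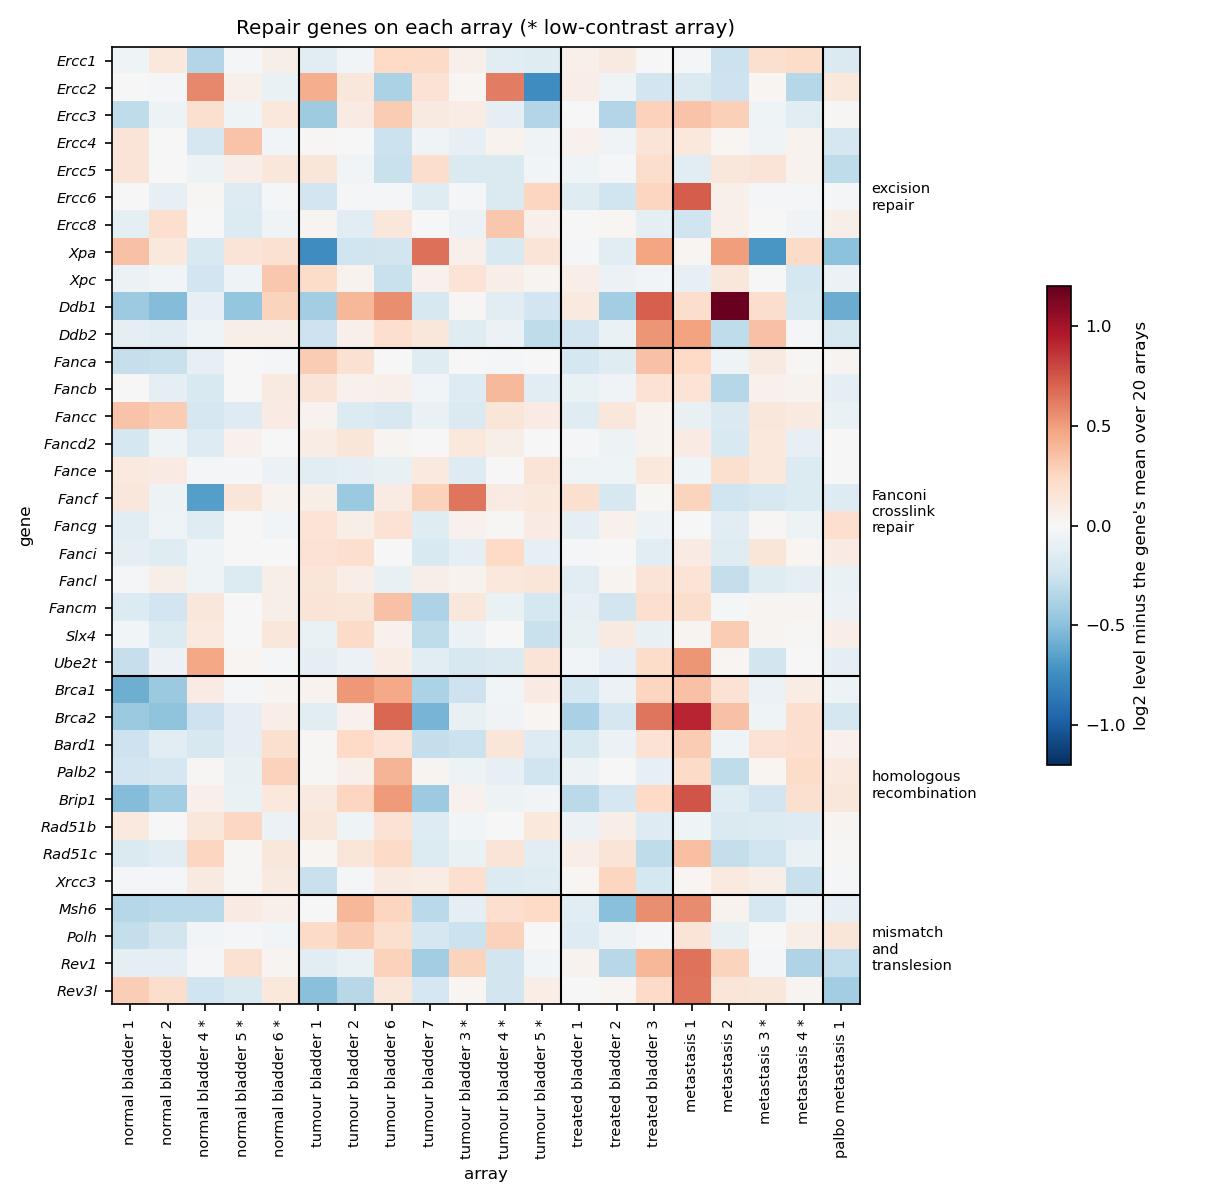
Log2 level of each of the 35 repair genes on each of the 20 arrays, minus the gene's mean over the arrays, with genes grouped by role, arrays by group and low-contrast arrays starred. Metastasis 1, tumour bladder 6 and treated bladder 3 are red in most rows (27, 24 and 24 of 35), and normal bladders 1 and 2 in few (10 and 8). Normal bladders 4, 5 and 6 are red in 13, 15 and 23 rows.

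The first question was whether repair genes differ between tumour and normal bladders. In limma, with p-values adjusted over 30141 genes, 0 of 35 repair genes passed 0.05, as did 0% of all genes. At an unadjusted p under 0.05 there were again 0 repair genes, against 4.25% of all genes, and no repair gene had groups that did not overlap (0.166% of all genes). Mean levels were higher in tumour bladders for 21 genes and lower for 14 (53.1% of all genes were higher), and the median difference was 0.06 on the log2 scale, against 0.01 over all genes. All 10 urothelial and all 8 smooth muscle markers had lower means in tumour bladders, by medians of -0.32 and -0.82, and all 5 cycling cell markers had higher ones, by a median of 0.66; their part in the repair gene values was not tested. The largest differences were 0.26 for Msh6 and -0.20 for Xpa. The 95% interval of a member's difference had a median half-width of 0.239, without adjustment for the number of genes.

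The second comparison, of treated with tumour bladders, asked whether repair genes stood higher after palbociclib and CDDP. No repair gene passed limma's test, as for 0% of all genes, and 0 of 35 had an unadjusted p under 0.05, against 0.342% of all genes. The groups overlapped for every repair gene (they did not for 0.129% of all genes). Levels were higher for 16 and lower for 19 genes, where 42.6% of all genes were higher, with a median difference of -0.03 against -0.02 for all genes. With arrays centred on their medians, 18 of 35 repair genes and 17211 of all genes were higher, where 12827 of all genes were higher before. Excision repair genes were higher in 8 of 11, Fanconi genes in 4 of 12, recombination genes in 2 of 8, and mismatch and translesion genes in 2 of 4. Differences ran from -0.16 for Polh to 0.23 for Rev3l, with a median half-width of the 95% interval of 0.282. Markers of bladder tissue moved between these groups too: all 10 urothelial and all 8 smooth muscle genes had higher means in treated bladders, by a median of 0.628 and 0.821. All 8 macrophage, 7 neutrophil and 5 T cell markers had lower means there, by medians of -0.41, -0.39 and -0.14. All 5 skeletal muscle markers had higher means, and they averaged 8.95 on treated bladder 1 against 5.4 and 5.37 on treated bladders 2 and 3. All 5 cycling cell markers and all 5 replicative helicase genes measured had lower means in treated bladders, by medians of -0.196 and -0.165. The cycling cell markers averaged 5.31, 5.33 and 7.03 on treated bladders 1, 2 and 3. None of these genes passed the test. Their part in the repair gene values was not tested.

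Metastases were compared with tumour bladders next. No repair gene passed (0% of all genes did), and 1 of 35, Rev3l, had an unadjusted p under 0.05, against 5.79% of all genes. None had groups that did not overlap (0.504% of all genes). Levels were higher for 22 and lower for 13, with 43.9% of all genes higher and a median difference of 0.04 against -0.03. All 8 smooth muscle and 8 of 10 urothelial markers had lower means in metastases, by medians of -0.68 and -0.62. All 8 macrophage markers had higher ones, by a median of 0.74, with a range over the 4 of 6.55 to 8.82 against 5.77 to 7.36 in tumour bladders. Their part was not tested either. Against normal bladders, 0 repair genes passed in either treated bladders or metastases (0% of all genes in each). At an unadjusted p under 0.05 there were 0 in treated bladders (0.358% of all genes) and 3 in metastases (6.90% of all genes): Brca2 and Ddb1, higher, and Rad51b, lower. Groups did not overlap for 0 repair genes in both (0.65% and 2.85% of all genes). Treated bladders had higher means than normal ones for 22 of 35 genes (46.7% of all genes), and for 31 of 35 when each array was centred on its median, where the all-gene count moved from 14070 to 17814. Metastases had higher means than normal bladders for 24 of 35 (47.3% of all genes), with a median difference of 0.08 against -0.01. With arrays centred they had higher means for 28 of 35, where the all-gene count moved from 14251 to 16591. Between those groups the marker lists differed by medians of 1.02 for macrophages, 0.85 for cycling cells, -1.60 for smooth muscle and -1.14 for urothelium, and their part was not tested. These comparisons share their tumour or normal arrays and are not independent of each other.

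The 2 kinds of array were also fitted apart. Without the 8 low-contrast arrays, 4 of 35 repair genes had an unadjusted p under 0.05 for tumour against normal bladders, against 3.34% of all genes: Brca1 and Polh were higher in tumour bladders, and Fancc and Rev3l lower. Means were higher for 24 of 35, against 61.4% of all genes. For metastases against tumour bladders there were 3 (5.11% of all genes), namely Rev3l, Ercc6 and Rev1, all higher. For metastases against normal bladders there were 4 (6.67% of all genes), namely Ddb1, Brca1 and Brca2, higher, and Fancc, lower. Treated bladders gave 0 against tumour bladders (0.335% of all genes) and 0 against normal bladders (0.819%). None of these passed after adjustment in limma, and the normal group then held 2 arrays of higher Xist. On the low-contrast arrays alone, 0 of 35 had an unadjusted p under 0.05 for tumour against normal (5.39% of all genes), metastasis against tumour (5.20%) and metastasis against normal (5.25%).

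**Figure D2:**
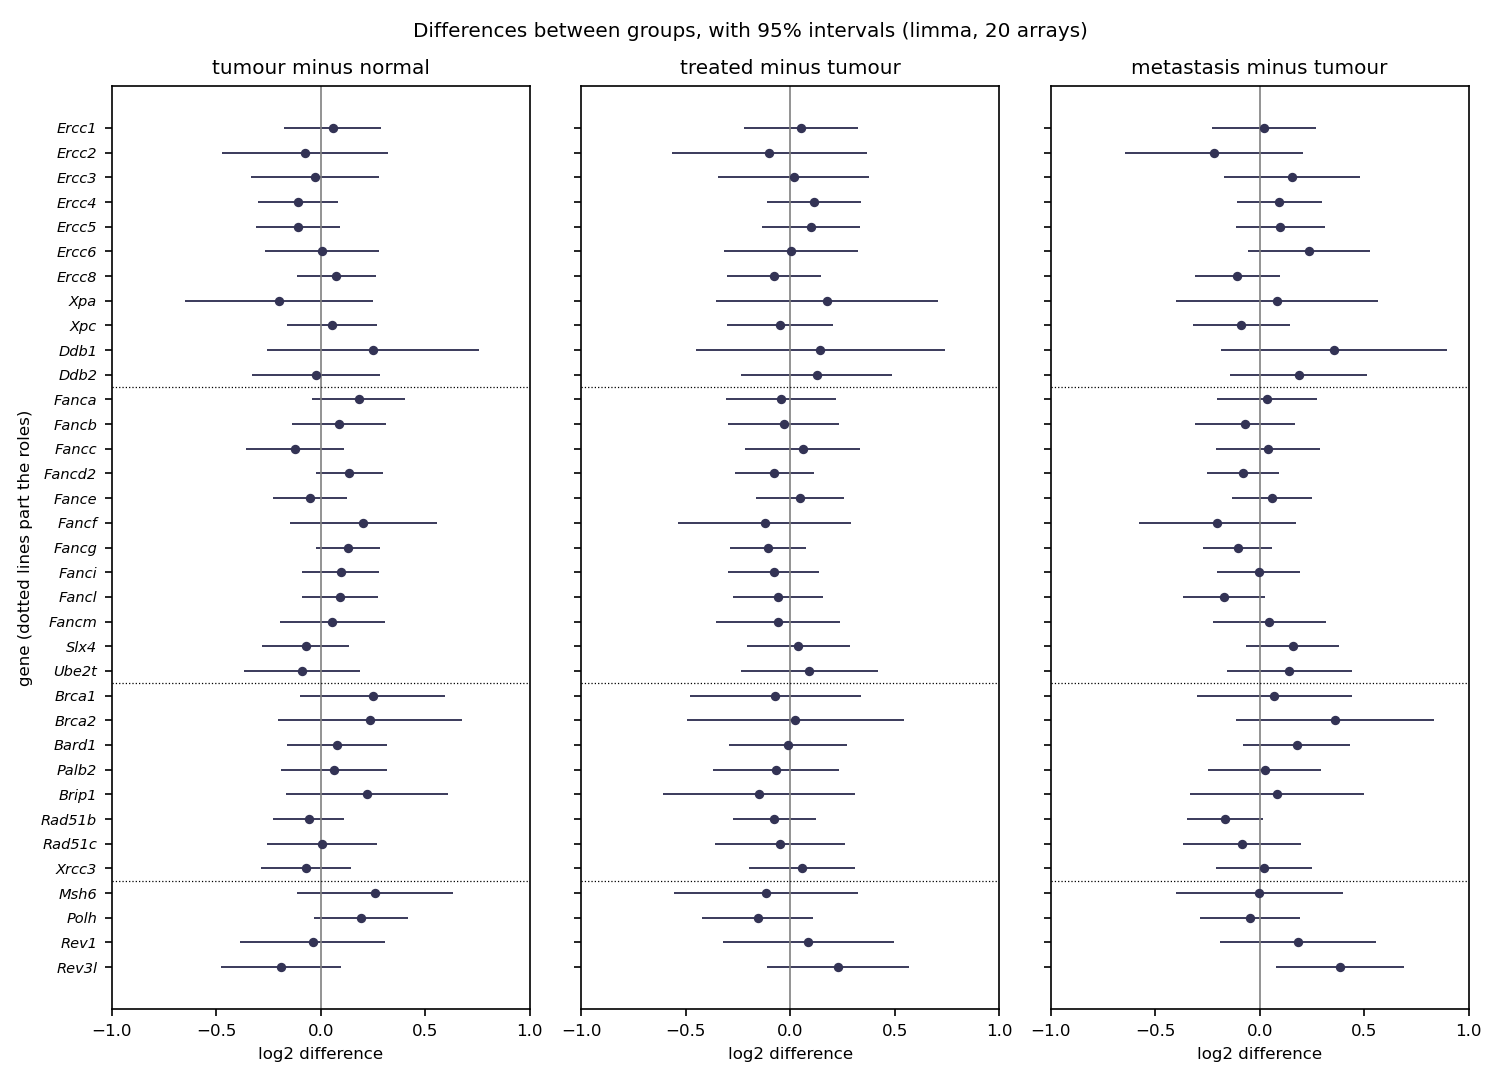
Difference in mean log2 level of each repair gene for tumour minus normal, treated minus tumour and metastasis minus tumour bladders, with 95% intervals from limma over 20 arrays. All intervals include 0 except that of Rev3l in metastases, at 0.08 to 0.69.

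Among the excision repair genes, Ercc1 and Ercc2 are those most often read in platinum response. Ercc1, the partner of the Ercc4 nuclease, was at 5.77, 5.95, 5.47, 5.80 and 5.89 on normal bladders 1, 2, 4, 5 and 6. On tumour bladders it ran from 5.67 over a median of 5.79 to 6.06, and on treated bladders it was at 5.88, 5.93 and 5.82. The 3 treated bladders lay inside the range of the tumour bladders. Metastases were at 5.80, 5.56, 6.01 and 6.04, and the palbo metastasis at 5.65. Treated minus tumour bladders gave 0.05 (95% interval -0.22 to 0.32), tumour minus normal 0.06 (-0.17 to 0.29) and metastasis minus tumour 0.02 (-0.23 to 0.27), and none passed in limma (adjusted p = 1, 0.998 and 0.986). Without the low-contrast arrays the metastases stood below the tumour bladders by -0.22 and on the low-contrast arrays above them by 0.28, so its sign differed between the kinds of array.

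Ercc2, a TFIIH helicase, was at 5.45, 5.43, 6.02, 5.51 and 5.37 on normal bladders 1, 2, 4, 5 and 6. Tumour bladders spread from 4.70 over 5.58 to 6.06, the widest group for this gene. Treated bladders were at 5.53, 5.4 and 5.22, metastases at 5.27, 5.20, 5.47 and 5.1, and the palbo metastasis at 5.57. All 4 metastases lay below the mean of the tumour bladders and below that of the normal bladders, and the groups overlapped. Metastases minus normal bladders gave -0.30 (SE 0.216, limma adjusted p = 0.805) and metastases minus tumour bladders -0.22 (SE 0.202, adjusted p = 0.893). Treated minus tumour bladders gave -0.10 (95% interval -0.57 to 0.37).

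Ercc4, the nuclease that pairs with Ercc1, was at 5.34, 5.19, 4.98, 5.53 and 5.15 on normal bladders 1, 2, 4, 5 and 6. It ran from 4.93 over 5.14 to 5.23 on tumour bladders. Every tumour bladder was below the normal mean of 5.24, for a difference of -0.11 (SE 0.0907, limma adjusted p = 0.998). The treated bladders, at 5.24, 5.14 and 5.34, were all above the tumour mean of 5.13, for a difference of 0.11 (SE 0.107, adjusted p = 1). Metastases were at 5.31, 5.21, 5.14 and 5.23.

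Ddb1 was at 6.62, 6.53, 6.95, 6.59 and 7.32 on normal bladders 1, 2, 4, 5 and 6. Metastases were at 7.26, 8.24, 7.26 and 6.87, all above the normal mean of 6.80, while normal bladder 6 lay above 3 of the 4. Metastases minus normal bladders gave 0.61 (SE 0.276, limma unadjusted p = 0.0414, adjusted p = 0.721), and 0.33 without metastasis 2. Tumour bladders ran from 6.63 over 6.92 to 7.61, and treated bladders were at 7.17, 6.63 and 7.77, for a treated minus normal difference of 0.39 (SE 0.3, adjusted p = 1). The Ddb1 interval was the widest of the 35 genes in every comparison. Ddb2, its partner in the sensor and a known target of p53, was at 6.83, 6.04, 6.69 and 6.33 on metastases and at 6.11, 6.26 and 6.87 on treated bladders, with tumour bladders from 6.04 to 6.54. Treated minus tumour bladders gave 0.13 for Ddb2 (SE 0.172).

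Ercc6, which rescues polymerases stalled at lesions in transcribed genes, was at 6.29 on metastasis 1 and at 5.62, 5.54 and 5.54 on metastases 2, 3 and 4. Tumour bladders ran from 5.33 over 5.55 to 5.82, and normal bladders 1, 2, 4, 5 and 6 were at 5.56, 5.46, 5.58, 5.41 and 5.54. The metastasis minus tumour difference of 0.24 (SE 0.138, limma adjusted p = 0.861) was 0.05 without metastasis 1. Ercc8, which acts with Ercc6, gave -0.11 in the same comparison (SE 0.0974). For Xpa, the tumour bladders ran from 6.12 to 7.52 and the metastases from 6.16 to 7.36. The remaining excision repair genes, Ercc3, Ercc5 and Xpc, differed by between -0.11 and 0.15 among tumour, treated and metastatic samples and between tumour and normal bladders, and their adjusted p-values were 0.903 or higher.

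In the Fanconi group, Fancg, a scaffold of the core complex, had the smallest p of all members for tumour against normal bladders. Normal bladders 1, 2, 4, 5 and 6 were at 5.45, 5.52, 5.43, 5.58 and 5.54, and tumour bladders ran from 5.43 over 5.64 to 5.75. In 6 of 7 tumour bladders Fancg was above the normal mean, with the exception of tumour bladder 7, and the difference was 0.13 (SE 0.0729, limma unadjusted p = 0.0885, adjusted p = 0.998). Treated bladders were at 5.46, 5.62 and 5.51, all below the tumour mean of 5.63, for -0.11 (SE 0.0859, adjusted p = 1).

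Fancd2, the protein that receives ubiquitin at a crosslink, was at 5.02, 5.18, 5.07, 5.28 and 5.23 on normal bladders 1, 2, 4, 5 and 6. Tumour bladders ran from 5.22 over 5.30 to 5.37, each above the normal mean of 5.16. The difference was 0.14 (SE 0.0762, limma unadjusted p = 0.0911, adjusted p = 0.998), and normal bladders 5 and 6 lay inside the tumour range. Treated bladders were at 5.21, 5.17 and 5.27, all below the tumour mean of 5.29, for -0.08 (95% interval -0.27 to 0.11). Metastases were at 5.33, 5.04, 5.35 and 5.13, and the palbo metastasis at 5.22.

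Fancl, the ubiquitin ligase, was at 6.23 on metastasis 1 and at 5.78, 5.92 and 5.96 on metastases 2, 3 and 4, the last 3 below the tumour range of 5.98 over 6.15 to 6.21. Normal bladders 1, 2, 4, 5 and 6 were at 6.04, 6.14, 6.02, 5.90 and 6.14. The difference was -0.17 (SE 0.0925, limma adjusted p = 0.861), or -0.26 without metastasis 1 and -0.11 without metastasis 2. Fanca, of the core complex, measured 4.92, 4.93, 5.1, 5.19 and 5.17 on normal bladders 1, 2, 4, 5 and 6, and 4.99, 5.05 and 5.55 on treated bladders. The treated minus normal difference of 0.14 (SE 0.133, adjusted p = 1) was -0.04 without treated bladder 3. Fancc, also of the core complex, measured 5.60 and 5.57 on normal bladders 1 and 2, above all other arrays, and 5.06, 5.11 and 5.36 on normal bladders 4, 5 and 6. Over the 12 arrays that are not low in contrast, tumour minus normal was -0.42 for Fancc (SE 0.138, limma unadjusted p = 0.0119, adjusted p = 0.993). Fancb, Fance, Fancf, Fanci, Fancm, Slx4 and Ube2t had adjusted p-values of 0.873 or higher in the comparisons with tumour bladders.

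Brca1 and Brca2 stood lowest on normal bladders 1 and 2 and tumour bladder 7. Brca1, which starts recombination and recruits Palb2, was at 4.85, 4.99, 5.54, 5.43 and 5.47 on normal bladders 1, 2, 4, 5 and 6. It ran from 5.06 over 5.48 to 5.96 on tumour bladders and was at 5.23, 5.37 and 5.70 on treated bladders. Metastases were at 5.79, 5.61, 5.37 and 5.53. Tumour minus normal was 0.25 (SE 0.165, limma adjusted p = 0.998) over all arrays. It was 0.68 over the 12 arrays (SE 0.252, unadjusted p = 0.0232, adjusted p = 0.993) and -0.10 over the 8 low-contrast arrays (SE 0.14, adjusted p = 0.985). Treated minus tumour was -0.07 (95% interval -0.48 to 0.34).

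Normal bladders 1, 2, 4, 5 and 6 had Brca2 at 5.74, 5.70, 5.94, 6.08 and 6.26, and metastases at 7.10, 6.54, 6.13 and 6.39. All 4 metastases were above the normal mean of 5.94, though normal bladder 6 was above metastasis 3. The difference was 0.60 (SE 0.24, limma unadjusted p = 0.0237, adjusted p = 0.72), 1.10 over the 12 arrays (2 against 2, adjusted p = 0.684) and 0.17 over the 8 (2 against 3, adjusted p = 0.983). Tumour bladders ran from 5.63 over 6.14 to 6.87. Treated bladders were at 5.80, 5.98 and 6.83, the last close to the highest tumour bladder and the others between the lowest and the median, for a treated minus tumour difference of 0.02 (95% interval -0.50 to 0.54). It was -0.29 without treated bladder 3 and 0.23 without treated bladder 1. The palbo metastasis was at 5.97, below the 4 metastases.

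Normal bladders 1, 2, 4, 5 and 6 had Rad51b, a recombination gene, at 5.02, 4.90, 5.04, 5.15 and 4.83, and metastases at 4.85, 4.73, 4.74 and 4.75. All 4 metastases were below the normal mean of 4.99, for -0.22 (SE 0.0928, limma unadjusted p = 0.0278, adjusted p = 0.72). The tumour bladders ran from 4.75 over 4.91 to 5.07, and metastases minus tumour bladders gave -0.17 (SE 0.0867, adjusted p = 0.861). Treated bladders were at 4.83, 4.98 and 4.75, for -0.13 against normal bladders (SE 0.101). Brip1, the helicase that binds Brca1, measured 4.96 and 5.06 on normal bladders 1 and 2, 5.04 on tumour bladder 7 and 6.23 on metastasis 1. Bard1, the obligate partner of Brca1, was at 5.43, 5.07, 5.30 and 5.33 on metastases against a normal mean of 5.03 (difference 0.25, SE 0.131, adjusted p = 0.732). Palb2, Rad51c and Xrcc3 differed by no more than 0.09 in either direction in the 5 comparisons.

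Rev3l, the catalytic subunit of the translesion polymerase zeta, was the repair gene with the smallest p for metastases against tumour bladders. Tumour bladders ran from 5.70 over 6.00 to 6.34 and metastases were at 6.84, 6.35, 6.34 and 6.23, each above the tumour mean of 6.06. The difference was 0.38 (SE 0.146, 95% interval 0.08 to 0.69, limma unadjusted p = 0.017, adjusted p = 0.841), and 0.25 without metastasis 1. Over the 12 arrays it was 0.62 (SE 0.205, adjusted p = 0.862) and over the 8 low-contrast arrays 0.12 (SE 0.173, adjusted p = 0.999). Normal bladders 1, 2, 4, 5 and 6 were at 6.5, 6.41, 5.96, 6.03 and 6.33, so tumour bladders lay below them by -0.19 (SE 0.136, adjusted p = 0.998), with 5 of 7 under the normal mean. Treated bladders were at 6.20, 6.22 and 6.43, all above the tumour mean, for 0.23 (SE 0.161, adjusted p = 1). The palbo metastasis, at 5.78, was below all 4 metastases.

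Polh, the polymerase that copies past platinum intrastrand links, was at 5.14, 5.20, 5.39, 5.41 and 5.39 on normal bladders 1, 2, 4, 5 and 6. It ran from 5.16 over 5.61 to 5.73 on tumour bladders and was at 5.27, 5.36 and 5.4 on treated bladders. Tumour minus normal was 0.19 (SE 0.107, limma unadjusted p = 0.0908, adjusted p = 0.998), and treated minus tumour -0.16 (SE 0.126, adjusted p = 1), with all 3 treated bladders under the tumour mean of 5.5. Msh6, which binds mismatches, was at 5.96, 5.58 and 6.64 on treated bladders and from 5.76 to 6.48 on tumour bladders. Rev1, the scaffold of translesion synthesis, was at 6.89, 6.51, 6.22 and 5.88 on metastases and from 5.82 to 6.52 on tumour bladders.

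**Figure D3:**
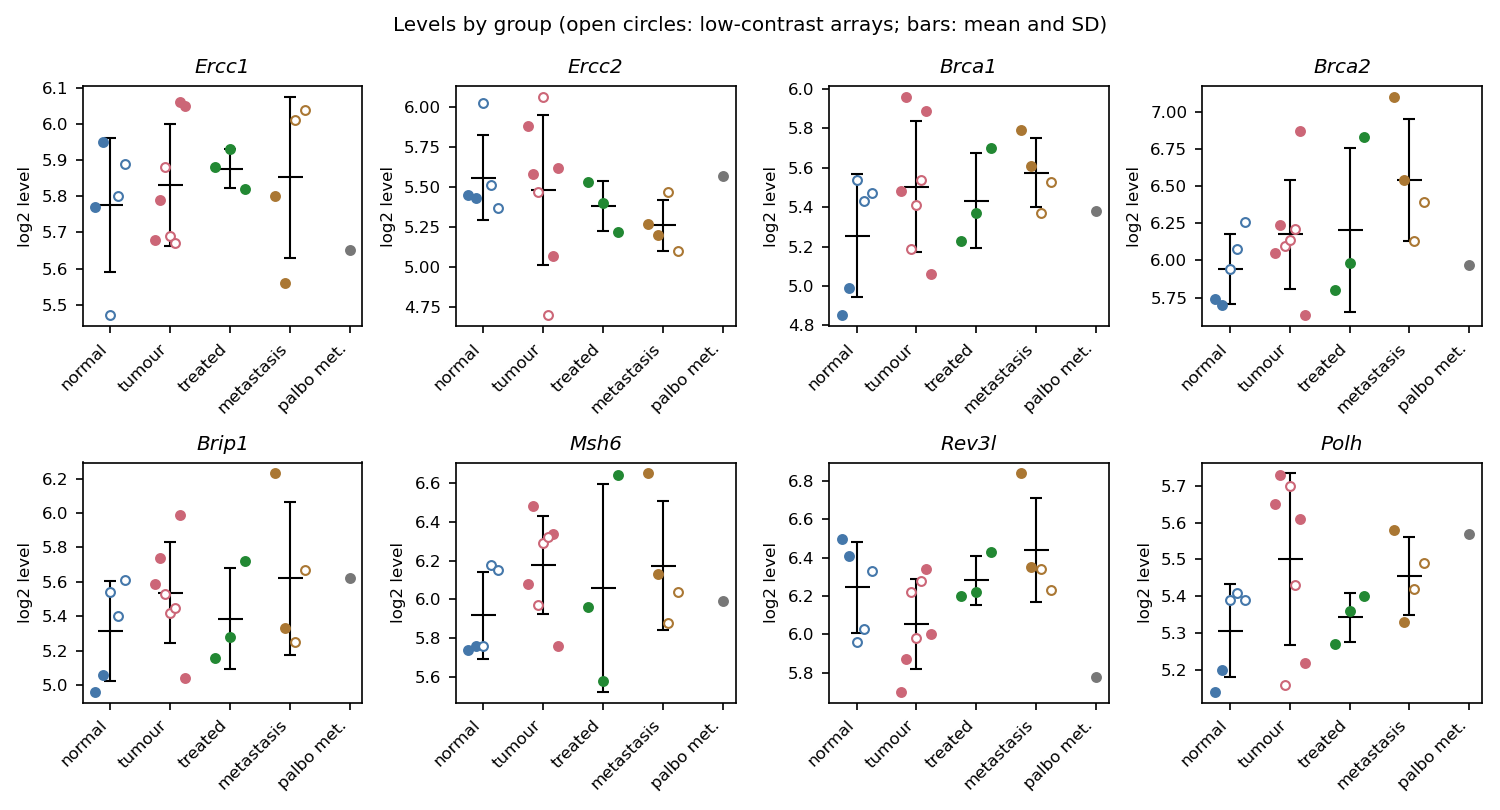
Log2 levels of 8 repair genes by group, with 1 point per array, open points for low-contrast arrays, and a bar for mean and SD in groups of more than 1 array. Metastasis 1, at 7.10 for Brca2 and 6.84 for Rev3l, is the highest array in both panels. The groups of more than 1 array overlap for each gene, and the palbo metastasis lies below the 4 metastases for Brca2 (5.97) and Rev3l (5.78).

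Other genes of the same pathways were taken from lists of partners, and none of them passed limma's test in any of the 5 comparisons. For treated against tumour bladders, means were higher for 10 of 19 excision repair partners, 4 of 15 crosslink repair partners, 12 of 26 recombination partners, 1 of 4 mismatch repair partners, 3 of 5 translesion partners and 5 of 19 checkpoint and damage signalling genes, against 42.6% of all genes. None had an unadjusted p under 0.05, against 0.342% of all genes. The smallest p in each list belonged to Uvssa (0.11), Faap24 (-0.18), Polq (-0.18), Msh3 (-0.06), Shprh (0.12) and Timeless (-0.09), with the log2 difference in parentheses. For tumour against normal bladders, 10 of 19 excision repair partners, 13 of 15 crosslink repair partners, 16 of 26 recombination partners, 3 of 4 mismatch repair partners, 1 of 5 translesion partners and 13 of 19 checkpoint genes had higher means, against 53.1% of all genes. The smallest p of each list belonged to Ccnh (-0.32), Faap24 (0.21), Zswim7 (-0.36), Msh3 (0.14), Polk (-0.14) and Rad1 (0.18). Rad1, a ring subunit of the checkpoint clamp, was above the normal mean on all 7 tumour bladders (SE 0.076, unadjusted p = 0.0327, adjusted p = 0.998). Zswim7, of the recombination list, was below it on all 7 (SE 0.152, unadjusted p = 0.0283, adjusted p = 0.998). Of all genes, 4.25% had an unadjusted p under 0.05 in this comparison.

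For metastases against tumour bladders, means were higher for 12 of 19, 8 of 15, 16 of 26, 3 of 4, 3 of 5 and 10 of 19 genes of the same lists in the same order, against 43.9% of all genes. The smallest p belonged to Gtf2h3 (-0.29), Usp1 (0.24), Gen1 (-0.37), Pms1 (-0.11), Shprh (0.22) and Rnf168 (0.51). Gen1, a resolvase of recombination intermediates, was below the tumour mean on all 4 metastases (SE 0.142, unadjusted p = 0.0176, adjusted p = 0.841), where 5.79% of all genes had an unadjusted p under 0.05. Against normal bladders, metastases had higher means for 14 of 19, 8 of 15, 16 of 26, 3 of 4, 3 of 5 and 14 of 19 (47.3% of all genes), led by p with Gtf2h5 (-0.31), Usp1 (0.33), Zswim7 (-0.56), Msh3 (0.22), Poli (-0.18) and Rad1 (0.24). Zswim7 was below the normal mean on all 4 metastases (SE 0.175, unadjusted p = 0.00519, adjusted p = 0.719), where 6.9% of all genes had an unadjusted p under 0.05. Treated bladders had higher means than normal ones for 14 of 19, 9 of 15, 18 of 26, 3 of 4, 2 of 5 and 13 of 19 (46.7% of all genes), and the smallest p belonged to Rad23b (0.29), Cenpx (0.12), Dna2 (0.15), Msh3 (0.08), Poli (-0.11) and Rad1 (0.11).

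Many repair genes are transcribed in replicating cells, and each member was therefore set against the mean level of 5 genes of the replicative helicase, Mcm2, Mcm3, Mcm4, Mcm5 and Mcm6, over the arrays. The helicase mean was lowest on normal bladders 1 and 2 (5.16 and 5.12), tumour bladder 7 (5.25) and treated bladders 1 and 2 (5.31 and 5.32). It was highest on metastasis 1 (6.89), treated bladder 3 (6.69), tumour bladder 6 (6.62) and tumour bladder 2 (6.27), and lay between 5.72 and 6.02 on the others. Metastasis 1, treated bladder 3 and tumour bladder 6 also had the lowest array medians (5.13, 5.11 and 5.12), and the part of these was not tested. A permutation test of r was run for all 30136 other genes and adjusted over them. Of the 35 repair genes, 9 passed with a positive r and 0 with a negative one, against 3.87% of all genes that passed with a positive r. With Spearman's rho, 7 of 35 passed, against 1.46% of all genes. The median r was 0.36 for the repair genes and -0.08 for all genes, and r was 0.5 or higher for 14 of 35 against 8.80% of all genes. All arrays share 1 normalisation, and markers of cycling cells (5 genes) moved with the helicase genes, from 4.94 and 5.01 on normal bladders 1 and 2 to 7.03 on treated bladder 3, 7.14 on tumour bladder 6 and 7.37 on metastasis 1. Their part in these correlations was not tested.

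The 9 genes that passed were 4 of 8 recombination genes, 2 of 12 Fanconi genes, 2 of 4 mismatch and translesion genes and 1 of 11 excision repair genes. Brca2 had r = 0.93 and rho = 0.84 over 20 arrays (permutation p = 1e-05, the smallest these resamples can give, and 2e-05; adjusted p = 0.00151 and 0.00597). Brip1 had r = 0.91 and rho = 0.86 (permutation p = 1e-05 for both; adjusted p = 0.00151 and 0.00471). Brca1 and Msh6 each had r = 0.86, with rho = 0.82 and 0.78 and adjusted permutation p = 0.00151 for r. Fancm, the crosslink translocase, had r = 0.83, Fanca 0.81 and Bard1 0.74, with adjusted permutation p = 0.00234, 0.00151 and 0.00924 and rho = 0.83, 0.79 and 0.72. Rev1 (r = 0.69, rho = 0.51) and Ercc6 (r = 0.64, rho = 0.38) passed by r with adjusted permutation p = 0.0228 and 0.0401 and did not pass by rho (0.238 and 0.459). By role, the median r was 0.60 for recombination, 0.66 for mismatch and translesion, 0.35 for Fanconi and -0.07 for excision repair genes.

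Several repair genes did not follow the helicase genes. Ercc1 had r = -0.07 and rho = -0.09 (permutation p = 0.756 and 0.69), Ercc2 r = -0.25, Ercc4 0.01, Xpc -0.19, Ercc5 -0.24 and Ercc8 -0.32. Among recombination genes, Rad51b had r = -0.10, Xrcc3 -0.19 and Rad51c 0.28. Fancc had the lowest value, r = -0.46 (rho = -0.50, permutation p = 0.043 and 0.0276), and did not pass after adjustment. Polh (0.62), Ddb2 (0.60), Ddb1 and Ercc3 (0.59 each) and Ube2t (0.56) had an r above 0.5 with adjusted permutation p-values of 0.0612 to 0.116.

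The relation was not alike in all sets of arrays. Without the 2 arrays farthest from the median helicase level, metastasis 1 and treated bladder 3, 7 of 35 passed by r (1.71% of all genes). There r was 0.88 for Brca2, 0.90 for Brip1 and 0.88 for Brca1, but 0.27 for Ercc6, whose relation rests on those samples. Rev1 had r = 0.46 there and did not pass, and 0.70 within the 7 tumour bladders, which hold neither array. Over the 12 arrays, 7 of 35 passed (1.76% of all genes), with r = 0.95 for Brca2, 0.94 for Brip1 and 0.94 for Msh6. Over the 8 low-contrast arrays 0 of 35 passed, as did 0% of all genes, with r = 0.59 for Brca2, 0.25 for Brip1 and -0.27 for Brca1; the helicase mean itself ran only from 5.72 to 5.92 there. Without the 5 arrays of lowest helicase level, r was 0.91 for Brca2 and 0.82 for Brip1 over 15 arrays, and neither the repair genes nor any other gene passed (0% of all genes). Within the 7 tumour bladders r was 0.99 for Brip1, 0.93 for Brca2 and 0.88 for Brca1 (exact permutation p = 0.000595, 0.0109 and 0.0115), and no gene passed after adjustment over all genes. On 7 or 8 arrays the smallest exact p passes that adjustment only if many genes share it, so these counts of 0 cannot show a lost relation. The 8 low-contrast arrays were also picked for following no other array. Leaving out any 1 array kept r for Brca2 between 0.91 and 0.95 and for Brip1 between 0.88 and 0.93, while Ercc6 dropped to 0.46 without metastasis 1.

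**Figure D4:**
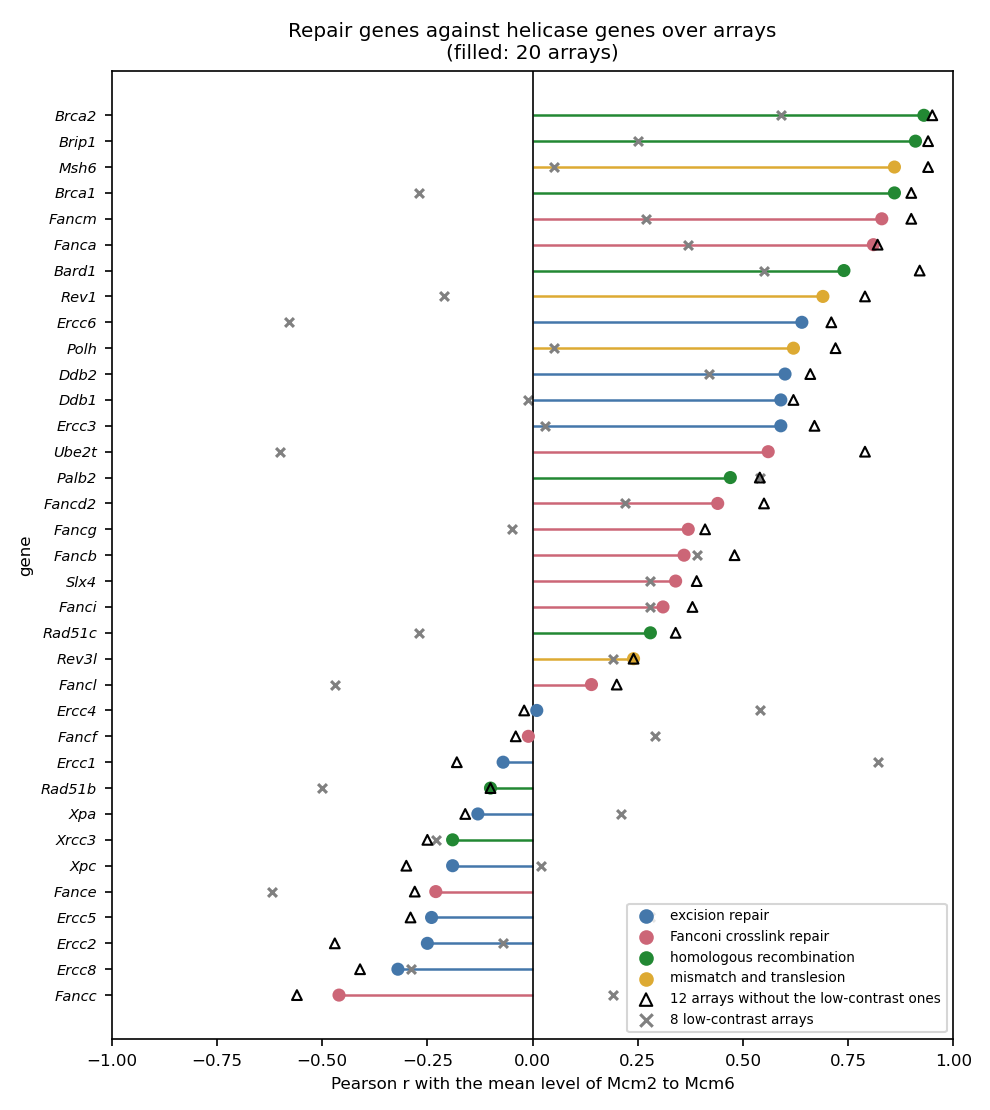
Pearson r of each repair gene with the mean level of Mcm2 to Mcm6, over 20 arrays (filled points, coloured by role), the 12 arrays that are not low in contrast (triangles) and the 8 low-contrast arrays (crosses). Filled points run from -0.46 for Fancc to 0.93 for Brca2, and Brca1, at 0.90 on the 12 arrays, is at -0.27 on the 8.

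**Figure D5:**
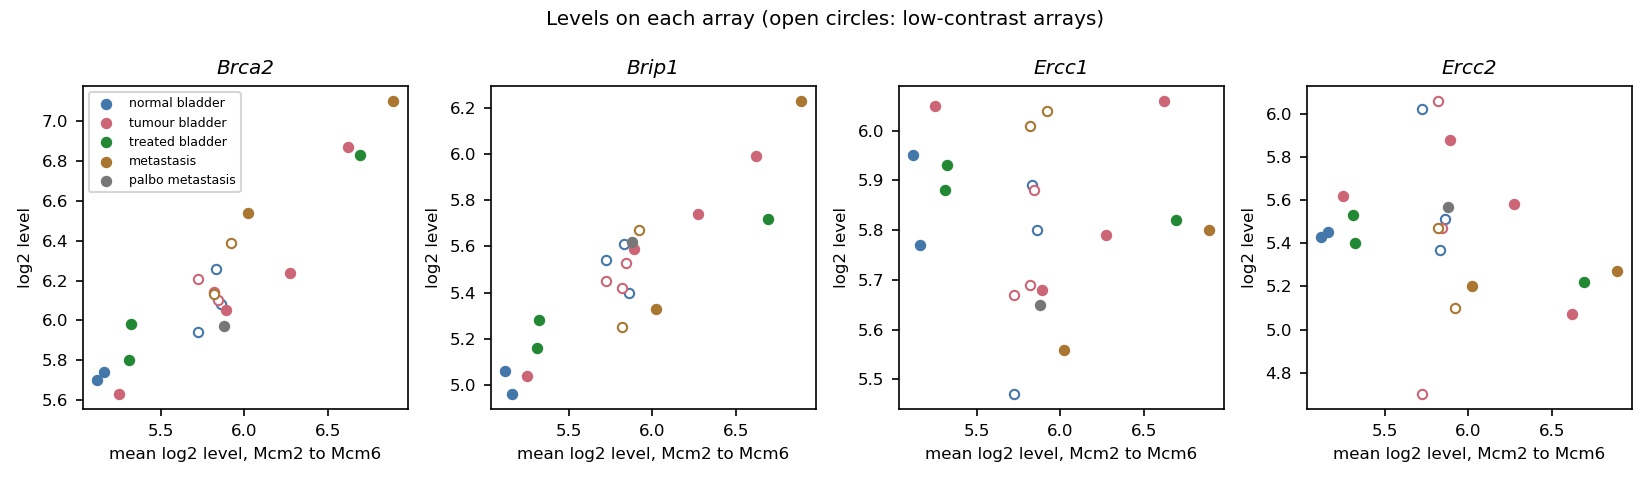
Log2 levels of Brca2, Brip1, Ercc1 and Ercc2 against the mean log2 level of Mcm2 to Mcm6, 1 point per array, coloured by group, with open points for low-contrast arrays. Brca2 (r = 0.93) and Brip1 (r = 0.91) climb with the helicase genes in mixed groups, and Ercc1 (r = -0.07) and Ercc2 (r = -0.25) do not.

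E2F factors, which Rb1 and p107 restrain, bind sites in the promoters of many replication genes. RefSeq promoter windows (GRCm38.p6, 250 bases before to 50 after a start) were found for 30 of the 35 genes and searched on both strands for the E2F letters TTTCCCGC, TTTCGCGC, TTTGCCGC and TTTGGCGC, and for the CHR letters TTTGAA. A match to the E2F letters was found in 5 of 30 (16.7%), against 2.60% of 27025 genes with windows: Brca2, Bard1 and Fancg before the start, Msh6 after it, and Rad51c after the start in 1 window and across it in the other. Counting only bases before the start, 3 of 30 held a match, against 2.16% of all genes. The CHR letters were found in 3 of 30, against 20.2% of all genes. The 5 genes with an E2F match had r with the helicase genes from 0.28 (Rad51c) to 0.93 (Brca2), with a median of 0.74, and the 25 without one had r from -0.46 to 0.91, with a median of 0.31. A match is a description of letters and not a site. The stretches before the start of the 3 genes with an upstream match follow, with that of Brip1, which follows the helicase genes as closely as Brca2 and holds no match in its window. They are printed on the gene's strand, 5′ to 3′, and end at the base before the start, with the E2F letters in capitals.
Brca2 (chr5:150522443-150522620, plus strand, match from position -168): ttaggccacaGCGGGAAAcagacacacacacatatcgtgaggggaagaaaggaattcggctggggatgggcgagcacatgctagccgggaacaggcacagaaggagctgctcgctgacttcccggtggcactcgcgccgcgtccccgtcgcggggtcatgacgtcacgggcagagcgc
Brip1 (chr11:86201194-86201313, minus strand, no match): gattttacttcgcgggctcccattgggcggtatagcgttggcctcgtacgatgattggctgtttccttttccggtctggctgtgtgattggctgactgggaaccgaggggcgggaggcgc
Bard1 (chr1:71102973-71103191, minus strand, match from position -209): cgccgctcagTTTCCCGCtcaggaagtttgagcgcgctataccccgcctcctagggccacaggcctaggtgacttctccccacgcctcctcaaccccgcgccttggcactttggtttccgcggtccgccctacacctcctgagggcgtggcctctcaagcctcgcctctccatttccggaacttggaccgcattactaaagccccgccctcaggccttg
Fancg (chr4:43010302-43010421, minus strand, match from position -52): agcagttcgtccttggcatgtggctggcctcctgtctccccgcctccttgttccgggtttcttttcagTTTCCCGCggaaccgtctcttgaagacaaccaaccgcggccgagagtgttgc

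The palbo metastasis is 1 sample and allows no test. It lay above all 4 metastases for 4 of 35 repair genes and below all of them for 7, where 25.3% of all genes lay above and 17.1% below. Against the 3 treated bladders it lay above for 6 and below for 8 of 35 (30.8% and 21.2% of all genes). Its helicase mean was 5.88, its urothelial markers averaged 4.92 and its macrophage markers 8.39, the second highest level after metastasis 1 (8.82). Ddb1 was at 6.46 there, the lowest of the 20 arrays, and Brca1 at 5.38.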

How the data were processed

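Affymetrix whole-transcript arrays were hybridised with RNA of 20 samples, isolated by an FFPE tissue kit, per the labels' protocols. The deposited values are log2 levels from RMA, which the authors ran in Affymetrix Expression Console (version not given), per the submitters' processing notes. That the logarithm has base 2 is taken from RMA's usual output. The values ran from 2.16 to 22.0, with 96 to 222 rows above 16 on each array. Whether they were rescaled after RMA was not tested. Arrays hold no read depth, and their number limits the precision.

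Of 65956 rows, the 30604 with exactly 1 symbol in the platform annotation were used. The other rows had no symbol (33206) or more than 1 (2146). A total of 813 older symbols were updated, and for 356 genes with several rows the row of highest mean was kept, which left 30141 genes.

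Group means over all 20 arrays were fitted in limma 3.58.1 under R 4.3.3, with 2-sided tests adjusted by Benjamini-Hochberg over 30141 genes and a threshold of 0.05. Low-contrast arrays had an SD above 0.30 in rows of mean 4.5 to 5.0 and a highest correlation of deviations below 0.25 with any other array, over 5317 rows of mean 7 or more. Correlations over arrays were tested with 100000 permutations in NumPy 2.4.6, or exactly for 8 or fewer arrays, and adjusted over 30136 genes, in place of the 35 members for which the adjustment was first planned; Mcm7 was not analysed here. Both procedures were tested on simulated data. Of 200 genes changed by 1 log2 unit, limma recovered 61% to 78% over the comparisons, and of 200 changed by 2 units 94.5% to 98%. Changes smaller than 1, like those of the repair genes, were not simulated. The simulated noise was independent for each gene and array, without low-contrast arrays or tissue shifts shared by genes. The recovered shares therefore need not hold for these arrays. All members are named. Described in full are the 2 members with the smallest p in each direction of a comparison, and Ercc1, Ercc2, Brca1, Brca2 and Fancd2; others were named after their values were seen. Of each partner list the gene with the smallest p in a comparison is named. The members and lists were chosen with earlier results of these data known. Alternatives were fits on the 2 groups compared, array weights, a trended robust prior, a filter on dim genes, renewed quantile normalisation, centring, mean rows, a replicate block, the palbo metastasis as a metastasis, each array left out, and sets of arrays.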

Additional observations from a re-analysis of the deposited data

Results flagged for a closer look

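Each repair gene's levels were searched for 1 array far from the rest in the groups of 4 to 7 arrays. Of 105 combinations of a gene and a group, 7 held such an array, and chance gives about 1 in 20. Metastasis 1 was the far array for 3 genes: Ercc6 at 6.29 (the nearest of the other metastases was at 5.62), Fancf at 4.40 (nearest 3.97) and Rad51b at 4.85 (nearest 4.75). Metastasis 2 was far for Slx4, a nuclease scaffold, at 6.22 (nearest 5.95). Normal bladder 4, a low-contrast array, was far for Ercc2 at 6.02 (nearest 5.51) and for Fancf at 3.47 (nearest 4.07). Tumour bladder 6, where the urothelial markers averaged 5.44, was far for Xpc at 5.70 (nearest 6.00). Without metastasis 1 the correlation of Ercc6 with the helicase genes was 0.46.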

How the results depend on the processing

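No repair gene passed the threshold in any of the 105 refits, in which the smallest adjusted p of a member was 0.183 (metastases against normal bladders with array weights). Over all genes, 102 of 105 refits gave 0 genes past the threshold, where the unadjusted counts in the design as given were 1281, 103, 1745, 108 and 2081. The exceptions were 3 genes for metastases against tumour bladders and 3 for metastases against normal bladders without the 8 low-contrast arrays, and 1 for metastases against normal bladders in a fit on those 2 groups alone. Of 882 refitted differences of the members described in full, 853 kept their direction.

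Without the low-contrast arrays the sign turned for Ercc2 in tumour against normal bladders (0.0976) and for Ercc1 in treated against tumour (-0.0158), metastasis against tumour (-0.217) and metastasis against normal (-0.181). On those 8 arrays alone it turned for Rev3l (0.0568) and Brca1 (-0.101) in tumour against normal, Ercc6 in metastasis against tumour (-0.0418) and Brca1 in metastasis against normal (-0.0325). Array weights turned Brca2 in treated against tumour (-0.244) and Ercc1 in both metastasis comparisons (-0.00742 against tumour, -0.00235 against normal). Quantile normalisation turned Brca2 in treated against tumour (-0.0328), and the palbo metastasis counted as a metastasis turned Ercc1 against tumour (-0.0208). The causes were not tested.

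With 1 array left out, tumour against normal ran from -0.0196 to 0.102 for Ercc1 and from -0.171 to 0.0555 for Ercc2. Treated against tumour ran from -0.203 to 0.0294 for Brca1 and from -0.293 to 0.227 for Brca2. Metastasis against tumour ran from -0.0421 to 0.118 for Ercc1 and from -0.00508 to 0.145 for Brca1. Treated against normal ran from -0.04 to 0.239 for Fanca and from -0.0573 to 0.462 for Brca2.

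Correlation with the helicase genes, passed by 9 members over 20 arrays, was passed by 0 on the 8 low-contrast arrays, 0 on the 7 tumour bladders and 0 without the 5 arrays of lowest helicase level (these 3 sets were chosen after the data were seen), and by 14 with arrays centred on their medians. The cause was not tested; the 15 arrays of the third set lack the low end of the helicase range, and 12 arrays that keep it gave 7. E2F letters were found in 3 promoters when only bases before the start were searched. The replicate number as a block left 0 repair genes and 0 genes in all past the threshold in each comparison, and gave a treated minus tumour difference of 0.0993 for Ercc1. Of 20 pairs of arrays with the same number, 1 had deviations that correlated above 0.1 (tumour bladder 2 with treated bladder 2, r = 0.33). Of 19 arrays, 1 correlated best with its own number. The check cannot say whether the numbers pair the samples, because the 8 low-contrast arrays among the 19 were picked for following no other array. Precision is limited by 3 to 7 arrays per group, of which 8 in all were low in contrast.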

Other observations

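Genes that carry platinum or bind it were listed beside the repair genes (15 measured genes of uptake, export and thiols), and none passed limma's test in the 5 comparisons. Atp7a, a copper exporter that can also move platinum, was at 7.0, 6.48, 6.08 and 6.21 on metastases and ran from 5.28 over 5.91 to 6.29 on tumour bladders, for a difference of 0.56 (SE 0.173, unadjusted p = 0.00437, adjusted p = 0.841). Each metastasis was above the tumour mean of 5.88, and the groups overlapped. In this comparison 5.79% of all genes had an unadjusted p under 0.05. Atp7a also had the smallest p of the list for metastases against normal bladders (0.52, unadjusted p = 0.0122, adjusted p = 0.72). On treated bladders Atp7a was at 5.76, 5.72 and 6.12. Slc31a1, the copper importer through which platinum can enter cells, was at 6.14, 6.16 and 6.54 on treated bladders and from 6.07 over 6.35 to 6.78 on tumour bladders, and had the smallest p for tumour against normal bladders (0.25, adjusted p = 0.998). For treated against tumour bladders the smallest p belonged to Gsta4, a glutathione transferase, at 7.89, 8.4 and 10.45 on treated bladders (difference 0.98, SE 0.836, adjusted p = 1). For treated against normal bladders it belonged to Mt2, a metallothionein, at 6.23, 4.69 and 4.79 on treated bladders (difference 0.50, SE 0.405, adjusted p = 1). Of the 15 genes, 8 had a higher and 7 a lower mean in treated than in tumour bladders (42.6% of all genes were higher), with a median difference of 0.01.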
